A study of Mus musculus with 4 samples.

Results

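The 3 genes described here are encoded by the mouse mitochondrial genome. mt-Rnr1 is the 12S rRNA of the small mitochondrial ribosomal subunit, mt-Rnr2 is the 16S rRNA of the large subunit, and mt-Ta is the tRNA that carries alanine. Every Argonaute (AGO) cluster that the deposited tables annotate to 1 of these gene symbols, in the classes for mitochondrial rRNA or mitochondrial tRNA, was taken. This gave 25 of 2659 clusters in embryonic stem cells (ESCs) and 24 of 889 clusters in myotubes, and 3 of the 1707 gene symbols found in either table. No threshold on the values was used in the choice.

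The values come from PAR-CLIP, in which ultraviolet light ties a modified base of the RNA to the protein it touches, and sequencing then shows a C in place of a T there. Mouse ESCs carried an HA-Flag-AGO2 transgene that was induced with doxycycline at 2.5 ug/ml for 15 h, and AGO2 was captured through its FLAG tag. C2C12 myotubes, which form when cells of a mouse myoblast line fuse, were taken after 2 days of differentiation, and AGO was captured with a peptide that binds the whole protein family. Both were crosslinked at 312 nm for 5 min, RNase T1, an enzyme that cuts RNA behind G, was applied to both lysates, and the cytoplasmic fraction of each was used. There was 1 library per cell type and so no replicate check. The nuclear libraries were not analysed here. Cell type, the source of AGO and the capture changed together, so their parts in any difference cannot be told apart. RNA level was not measured in the tables, so more binding and more RNA cannot be told apart either.

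The ESC table held 214955 reads in clusters and that of myotubes held 135023. Chromosome M took 27.6% of these reads in ESCs and 50.3% in myotubes, and the 3 genes together took 10.7% and 15.6%. A single cluster outside the 3 genes held 43654 reads in ESCs, 20.3% of that table, and it enters the total behind every ESC share below. No cluster had fewer than 2 conversion positions or fewer than 4 converted reads, so a stretch without a cluster was below a calling limit and is not known to be at 0. The marker genes matched the labels: 8 of 13 ESC markers had a cluster in ESCs and none in myotubes, and 7 of 12 skeletal muscle markers had one in myotubes against 3 in ESCs. Among lists for neurons, fibroblasts, and blood or liver cells, the only gene with a cluster was the neuronal Stmn2, with 6 reads in ESCs.

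Both mitochondrial rRNAs are cut out of 1 long transcript of the heavy-strand promoter, in which tRNAs stand between the longer genes and mark the places of cutting. Mitochondrial RNase P frees the 5′ end of each tRNA, the nuclease ELAC2 frees the 3′ end, and the enzyme TRNT1 then adds the bases CCA, which the genome does not encode. The alanine tRNA is read from the opposite strand, in a group of tRNA genes between mt-Nd2 and mt-Co1. AGO proteins are known mainly for carrying miRNAs to mRNAs in the cytosol, and they have also been reported in mitochondria of muscle cells. The labels name no step that removes mitochondria from the cytoplasmic fraction, and the part of mitochondria in these reads was not tested.

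The sequences that the results turn on are given 5′ to 3′ as the deposited tables have them, on build mm10 and on the strand of the gene. The alanine tRNA was read from the minus strand at chrM:5015-5054 in ESCs and at chrM:5014-5054 in myotubes. They are shown because this pair of clusters carried the most reads of any member pair, and capitals mark the bases past the annotated end of the gene.
mt-Ta, ESC: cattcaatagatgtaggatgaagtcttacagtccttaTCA
mt-Ta, myotube: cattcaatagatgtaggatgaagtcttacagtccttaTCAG

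The leading mt-Rnr1 cluster is shown at its ESC position, chrM:298-409 on the plus strand, followed by the ESC clusters at chrM:786-832 and chrM:646-666 and the myotube cluster at chrM:637-672. In the first pair of sequences, capitals mark the bases that the myotube cluster also covered. In the other pair, capitals mark a stretch complementary to bases 2 to 8 of let-7g-5p, whose RefSeq sequence (GRCm38.p6) stands last with those bases in capitals.
mt-Rnr1, leading cluster: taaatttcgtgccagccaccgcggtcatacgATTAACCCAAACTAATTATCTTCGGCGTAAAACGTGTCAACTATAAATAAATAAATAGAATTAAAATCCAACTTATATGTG
mt-Rnr1, cluster at 786: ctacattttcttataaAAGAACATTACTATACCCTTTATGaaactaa
mt-Rnr1, cluster at 646, ESC: gctCTACCTCaccatctcttg
mt-Rnr1, cluster at 637, myotube: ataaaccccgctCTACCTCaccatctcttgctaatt
let-7g-5p: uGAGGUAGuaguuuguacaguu

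For mt-Rnr2, the ESC clusters at chrM:1345-1367, chrM:1931-1979, chrM:2287-2340 and chrM:2625-2667, all on the plus strand, are shown as those with the most reads and the one that differed most between the libraries. Capitals again mark bases that the myotube cluster also covered.
mt-Rnr2, cluster at 1345: AGCTACCTAAAAACAATTTTATG
mt-Rnr2, cluster at 1931: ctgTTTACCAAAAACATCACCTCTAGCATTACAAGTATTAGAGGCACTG
mt-Rnr2, cluster at 2287: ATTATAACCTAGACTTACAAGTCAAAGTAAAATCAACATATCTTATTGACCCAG
mt-Rnr2, cluster at 2625: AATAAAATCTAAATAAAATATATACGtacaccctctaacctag

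The 12S rRNA gene mt-Rnr1 (ENSMUSG00000064337, chrM:70-1024, 955 nt) carried 9 clusters in each library. They held 10382 reads in ESCs, 4.83% of all cluster reads (exact 95% interval 4.74 to 4.92%), and 6785 reads in myotubes, 5.03% (4.91 to 5.14%). By reads per gene, mt-Rnr1 ranked 3 of 1461 in ESCs and 6 of 483 in myotubes. All intervals are exact (Clopper-Pearson for shares, conditional binomial for ratios) and take in counting error alone, because copies made by PCR were not told apart by molecular identifiers. The clusters covered 376 nt of the gene in ESCs and 387 nt in myotubes, 39.4% and 40.5% of it. In both libraries the first began at base 70 of the gene and the last ended at base 888, and the longest stretch inside these bounds without a cluster was 119 nt in ESCs and 157 nt in myotubes.

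Reads on mt-Rnr1 were concentrated in 1 place. The leading cluster, chrM:298-409 in ESCs and chrM:329-409 in myotubes, held 4686 and 3699 reads, which were 45.1% and 54.5% of the gene's reads. Both ended at the same base, but the ESC cluster began 31 nt earlier, and its deposited mode position lay 44 nt upstream of that of the myotube cluster. The stretches with the next most ESC reads lay further along the gene. The cluster at chrM:786-832 held 1742 reads in ESCs and 519 in myotubes (chrM:802-825). The cluster at chrM:646-666 held 1516 reads in ESCs against 296 in myotubes (chrM:637-672), and the cluster at chrM:913-957 held 1227 against 836 at the same bounds. The other mt-Rnr1 clusters held 12 to 723 reads in ESCs and 68 to 669 in myotubes.

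The 16S rRNA gene mt-Rnr2 (ENSMUSG00000064339, chrM:1094-2675, 1582 nt) carried more clusters than mt-Rnr1 but fewer reads. It had 15 clusters with 3688 reads in ESCs, 1.72% of all cluster reads (1.66 to 1.77%), and 14 clusters with 3533 reads in myotubes, 2.62% (2.53 to 2.70%). Its rank by reads was 12 in ESCs and 8 in myotubes. The clusters covered 39.4% of the gene in ESCs and 41.1% in myotubes, close to the share of mt-Rnr1 that was covered. Per covered base, however, mt-Rnr2 had 5.92 reads in ESCs and 5.44 in myotubes, where mt-Rnr1 had 27.6 and 17.5.

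No single place dominated mt-Rnr2. The largest ESC cluster, chrM:2287-2340, held 918 reads, 24.9% of the gene's reads, and the myotube cluster from the same base (chrM:2287-2364) held 407. In myotubes the largest was chrM:1934-1979 with 675 reads, 19.1% of the gene's reads, and its ESC partner chrM:1931-1979 held 768. The stretch at chrM:1345-1367 held 613 reads in ESCs and 577 in myotubes, and it is the shortest mt-Rnr2 cluster of each library, at 23 and 24 nt. The median mt-Rnr2 cluster held 119 reads in ESCs and 154.5 in myotubes.

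**Figure D1:**
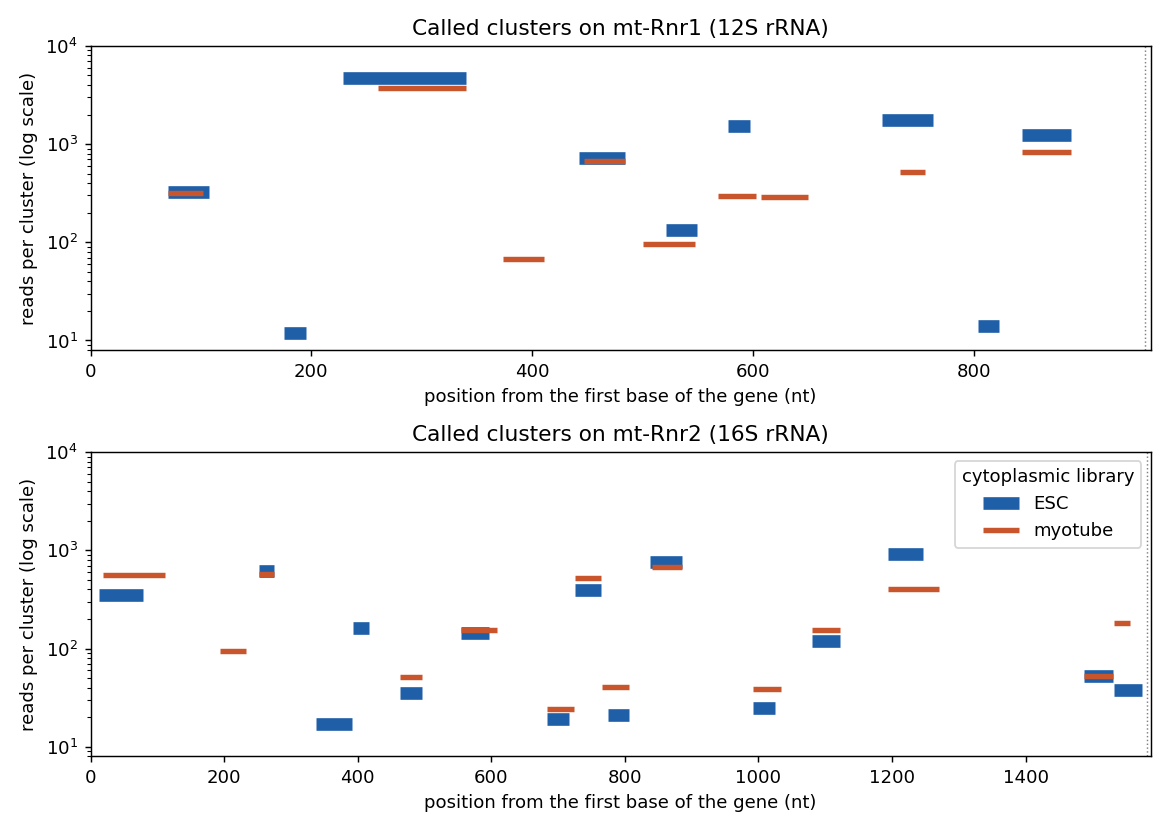
Clusters on mt-Rnr1 (top) and mt-Rnr2 (bottom). The x axis gives the position from the first base of the gene in nt, the y axis the reads per cluster on a log scale, and each bar is 1 called cluster with its true length, in ESCs (thick) or myotubes (thin); the dotted line is the gene's end. The leading mt-Rnr1 cluster stands at 4686 and 3699 reads, and no mt-Rnr2 cluster passes 918.

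The alanine tRNA mt-Ta (ENSMUSG00000064347, chrM:5018-5086, 69 nt, minus strand) had 1 cluster in each library. It held 8918 reads in ESCs, 4.15% of all cluster reads (4.06 to 4.23%), and 10703 reads in myotubes, 7.93% (7.78 to 8.07%). This was the cluster with the most reads in myotubes and the third by reads in ESCs. Per length, mt-Ta was far above the rRNAs: it had 223 reads per covered base in ESCs and 261 in myotubes.

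Both mt-Ta clusters began at the same base inside the tRNA, base 33 counted from the gene's 5′ end, and lacked the 5′ part. They covered 37 nt of the gene, 53.6% of it, and ran 3 nt past the annotated end in ESCs and 4 nt in myotubes. The printed bases past the end are those of the deposited cluster sequence, TCA, and the table does not give which bases the reads carried there. A read of a tRNA that ends in the added CCA would differ from TCA by a T-to-C change and would count as converted. The reads were varied copies and not 1 sequence: 170 distinct sequences stood behind the ESC cluster and 252 behind the myotube cluster, or 52.5 and 42.5 reads per distinct sequence. On the opposite strand of mt-Ta, each library also had 1 cluster with no annotation. It held 91 reads in ESCs (chrM:5017-5050), 1.02% of the mt-Ta reads, of which 57.1% were converted, and 74 reads in myotubes (chrM:5017-5065), 0.691%, of which 54.1% were converted. No cluster lay on the opposite strand of either rRNA gene.

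Other mitochondrial tRNAs had far fewer reads. Of the 22 mitochondrial tRNA genes, mt-Ta included, clusters were called on 7 in ESCs and on 5 in myotubes. The proline tRNA mt-Tp had 441 reads in ESCs and 303 in myotubes, over bases 1 to 66 of its 67. The serine tRNA mt-Ts2 had 220 and 478, and the glutamine tRNA mt-Tq had 66 reads in 2 ESC clusters and 143 in 1 myotube cluster over the whole gene. Clusters named for 3 further tRNAs lay in part outside the tRNA gene. Only 1.92% of the mt-Tl2 cluster (666 reads, ESCs alone) was inside the gene, and the mt-Tm cluster (579 reads, ESCs alone) and the mt-Tc clusters (52 and 46 reads, 38.3% and 50% inside the gene) ran past the 3′ end. Among the tRNAs with a cluster in both libraries, only mt-Ta and mt-Ts2 had clusters that began inside the gene in both and ended within 4 nt past its end.

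**Figure D2:**
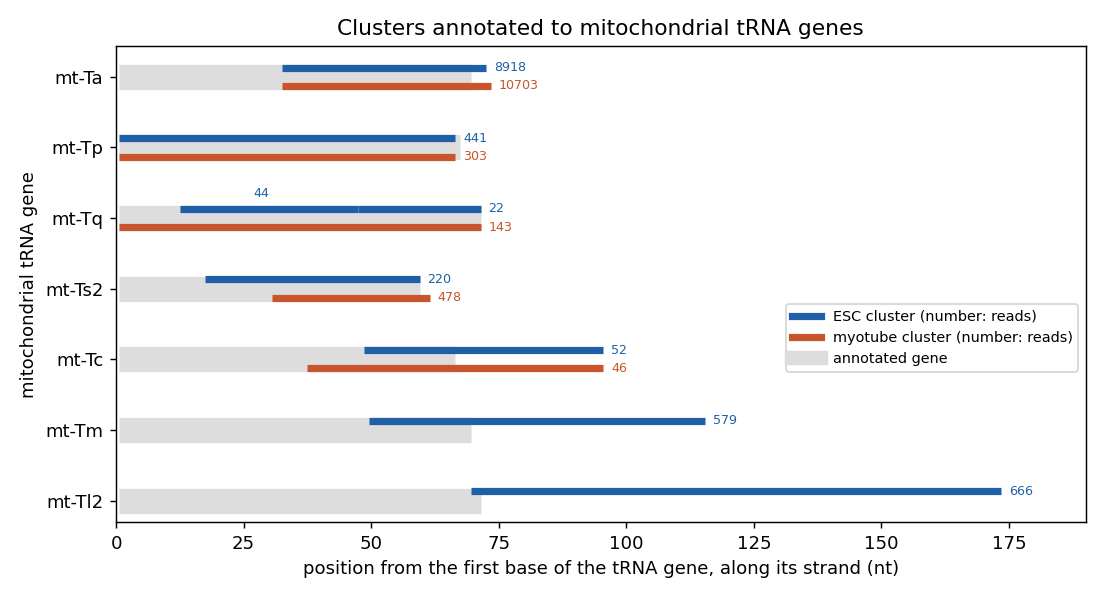
Clusters annotated to mitochondrial tRNA genes. The x axis gives the position from the first base of each tRNA along its own strand in nt, grey bars are the annotated genes, and coloured bars are clusters in ESCs and myotubes with their reads. The mt-Ta clusters, with 8918 and 10703 reads, begin at base 33, while the mt-Tp clusters begin at base 1.

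The share of AGO cluster reads on each gene was then compared between the 2 cell types. Of all cluster reads, mt-Rnr1 took close to the same share in both libraries, and mt-Rnr2 and mt-Ta took a lower share in ESCs. The log2 ratio of the read share, ESC over myotube, was -0.06 for mt-Rnr1 (-0.10 to -0.01), -0.61 for mt-Rnr2 (-0.68 to -0.54) and -0.93 for mt-Ta (-0.97 to -0.89), the last being 1.91-fold lower in ESCs. All 3 intervals lay below 0, as did those of 26.2% of the 237 genes with clusters in both tables. None of the 3 passed 2-fold, where 26.6% of these genes were at least 2-fold higher in ESCs and 27% at least 2-fold lower. The median log2 ratio of those genes was -0.04, and the 6 mitochondrial mRNAs among them had a median of -1.08, from -1.31 to -0.44.

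These ratios depend on the total they are taken over. As a share of chromosome M reads alone, the log2 ratio was 0.81 for mt-Rnr1, 0.26 for mt-Rnr2 and -0.070 for mt-Ta, so that the direction turned for both rRNAs. Within the reads of chromosome M, the 3 genes together made up 38.7% in ESCs and 30.9% in myotubes. Leaving the leading cluster of mt-Rnr1 out of its reads also turned its ratio, to 0.21.

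The genes whose ratio lay nearest to each member were taken from 26 candidates with at least 100 reads in each library. For mt-Rnr1 they were Rmrp, the RNA of RNase MRP, at -0.04, Gm25789 at -0.04 and mt-Tp at -0.13. For mt-Rnr2 they were the small nucleolar RNA Snord58b at -0.65, mt-Nd2 at -0.52 and Gm25541 at -0.47. For mt-Ta they were mt-Cytb, which encodes cytochrome b, at -0.96, the ribosomal RNA n-R5s185 at -1.15 and Gm22193 at -1.17. The nearest genes of each member thus held both mitochondrial and nuclear RNAs, and likeness rests on 1 ratio per gene from 2 libraries.

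Most stretches of the 3 genes that were called in one library were called in the other. Of the 25 ESC clusters, 21 shared 1 or more bases, on the same strand, with a myotube cluster, 84.0% (63.9 to 95.5%), where 11.6% of all ESC clusters and 87.9% of those on chromosome M did. Of the 24 myotube clusters, 21 overlapped an ESC cluster, 87.5% (67.6 to 97.3%), where 34.4% of all myotube clusters and 69.4% of those on chromosome M did. The share was thus far above that of all clusters, and in ESCs it was near that of chromosome M. In myotubes its interval also held the share of chromosome M. The rRNA clusters held a median of 154 reads in ESCs and 287 in myotubes, against 9 and 11 over all clusters. The part of read number in the overlap was not tested. Of the mitochondrial mRNA clusters, 94.6% overlapped in ESCs and 68.4% in myotubes. Clusters with no partner together held 0.896% of the members' reads in ESCs and 2.14% in myotubes.

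The bounds of the clusters were also shared. In the 21 overlapping pairs, 12 began at the same base, 10 ended at the same base and 5 did both, 1 on mt-Rnr1 and 4 on mt-Rnr2. By covered bases, mt-Rnr2 shared 517 nt, 83.0% of its ESC and 79.5% of its myotube bases, and mt-Rnr1 shared 269 nt, 71.5% and 69.5%. The mode positions lay within 10 nt of each other in 17 pairs.

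The 7 clusters without a partner were all on the rRNAs. In ESCs alone, mt-Rnr1 had clusters at chrM:244-264 with 12 reads and chrM:873-892 with 14, and mt-Rnr2 had clusters at chrM:1431-1485 with 17 reads and chrM:1486-1510 with 163. In myotubes alone, mt-Rnr1 had clusters at chrM:443-480 with 68 reads and chrM:676-719 with 287, and mt-Rnr2 had chrM:1287-1326 with 95. The cluster at chrM:1486-1510 had only 2 T in its sequence, and 19.0% of its reads were converted, the lowest share among the members in ESCs.

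Within the rRNAs, single stretches differed in both directions. Of the 21 pairs, 2 took an at least 2-fold higher read share in ESCs, where 13.9% of all 310 overlapping pairs did, and both were on mt-Rnr1. The pair at chrM:646-666 stood at a log2 ratio of 1.69 (1.51 to 1.87), with 1516 against 296 reads, and the pair at chrM:786-832 at 1.08 (0.93 to 1.22), with 1742 against 519 reads. The clusters of these pairs differed in length, at 21 and 47 nt in ESCs against 36 and 24 nt in myotubes. By distinct sequences in place of reads, neither pair stood apart: 26 against 20 distinct sequences gave -0.23 (-1.13 to 0.69) at the first, and 52 against 33 gave 0.05 (-0.61 to 0.72) at the second. The leading mt-Rnr1 pair was at -0.33 (-0.39 to -0.27), and the pair at chrM:913-957, with equal bounds, at -0.12 (-0.25 to 0.01). All 7 mt-Rnr1 pairs had a median of -0.20.

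At least 2-fold lower in ESCs were 8 of the 21 pairs, a share close to the 35.2% of all pairs, and all of them were on mt-Rnr2. All pair ratios are taken over all cluster reads, and they set whole clusters side by side, whose bounds differed in most pairs. With chromosome M reads as the total, the log2 ratio of the whole mt-Rnr2 gene turned from -0.61 to 0.26. Pairs were not counted over that total. The largest difference was at the 3′ end of the 16S rRNA, at chrM:2625-2667, with 38 reads in ESCs and 182 in myotubes, a log2 ratio of -2.93 (-3.48 to -2.42). By distinct sequences, 22 against 34, it was -1.24 (-2.08 to -0.42). The adjoining pair at chrM:2581-2624, with 53 and 52 reads, stood at -0.64 (-1.22 to -0.06). By reads, 2 neighbouring stretches of the same rRNA thus differed in their ratio. With 24 against 22 distinct sequences the adjoining pair was at -0.48 (-1.38 to 0.42), and the 2 intervals by distinct sequences overlapped. At the 5′ end, chrM:1105-1172 (68 nt) held 355 reads in ESCs. Its longer partner chrM:1111-1204 (94 nt) held 557 in myotubes, a log2 ratio of -1.32 (-1.52 to -1.13). The pair at chrM:2287-2340 was the only mt-Rnr2 pair with a higher share of reads in ESCs, at 0.50 (0.33 to 0.67). By distinct sequences, 67 against 49, its direction turned, to -0.16 (-0.71 to 0.40). The 13 mt-Rnr2 pairs had a median of -1.06.

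**Figure D3:**
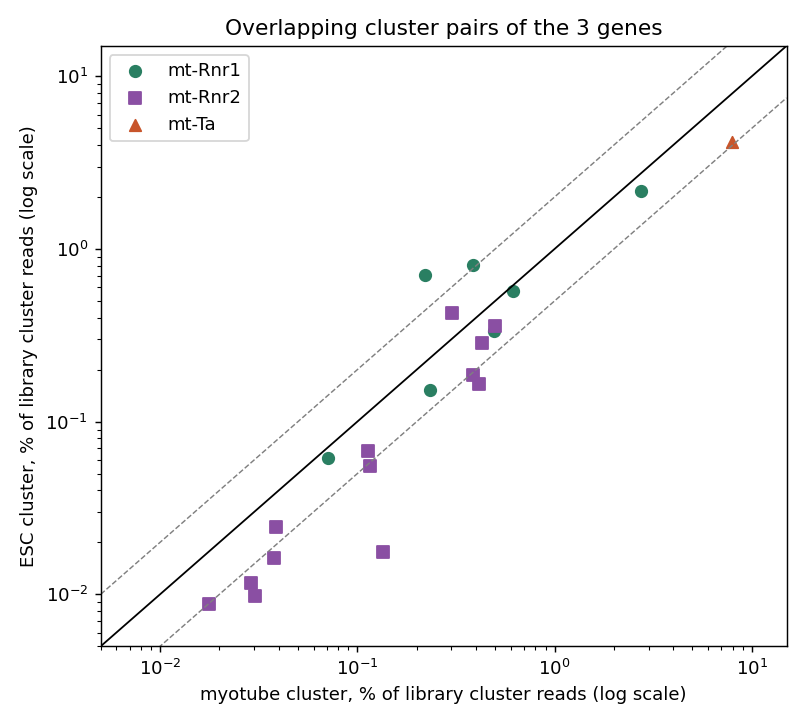
Read share of the 21 overlapping cluster pairs, as a percentage of all cluster reads of the library, in myotubes (x axis, log scale) and ESCs (y axis, log scale). Each mark is 1 pair of mt-Rnr1, mt-Rnr2 or mt-Ta, the solid line is equal share and the dashed lines are 2-fold; 2 mt-Rnr1 pairs lie above the upper dashed line and 8 mt-Rnr2 pairs below the lower one.

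The share of reads with a T-to-C conversion was of like size on the 3 genes in ESCs. It was 57.6% on mt-Rnr1 (56.6 to 58.5%), 55.5% on mt-Rnr2 (53.9 to 57.1%) and 60.1% on mt-Ta (59.1 to 61.2%). In myotubes it was 61.3% (60.1 to 62.5%), 58.1% (56.4 to 59.7%) and 72.3% (71.4 to 73.2%), so that mt-Ta stood above both rRNAs. The intervals of ESCs and myotubes did not overlap for mt-Rnr1 and mt-Ta, and they did for mt-Rnr2. These intervals count reads within 1 library per cell type, and mt-Ta had 52.5 and 42.5 reads per distinct sequence. They are therefore no test between the cell types. Over all clusters the share was also higher in myotubes, at 69.0% against 50.7% in ESCs.

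Set beside other RNAs in ESCs, the converted share of all 3 members was above that of the remaining mitochondrial tRNAs and of mitochondrial mRNAs. The 7 ESC clusters of other mitochondrial tRNAs had 41.4% converted reads (39.2 to 43.5%) and the 56 of mitochondrial mRNAs 44.9% (44.3 to 45.4%). In myotubes these shares were 51.5% (48.3 to 54.7%) and 58.3% (57.8 to 58.7%), the latter within the interval of mt-Rnr2. Clusters of the nuclear genome had 51.0% in ESCs and 77.4% in myotubes, so in myotubes all 3 members lay below them. Those shares are weighted by reads, and the ESC one holds the single cluster of 43654 reads. By the median over clusters, the nuclear genome stood at 80% in ESCs and 88.9% in myotubes, above the rRNAs at 58.5% and 60.6% and above mt-Ta in both libraries, with a median of 9 and 9.5 reads per nuclear cluster against 154 and 287 per rRNA cluster. Since every cluster had to pass a minimum of converted reads, these shares describe called clusters and not all reads on the genes.

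The number of T in a cluster sets how many bases can convert, so the rate per sequenced T was set beside the share of reads. It was 7.65% on mt-Rnr1, 8.16% on mt-Rnr2 and 8.06% on mt-Ta in ESCs, against 5.83% on mitochondrial mRNAs and 6.25% on the nuclear genome. In myotubes it was 8.19%, 8.21% and 9.32%, against 7.11% and 11.2%. By this rate all 3 members, mt-Rnr2 included, were above mitochondrial mRNAs in both libraries. Conversion events were nearly as many as converted reads, 5973 against 5975 on mt-Rnr1 in ESCs and 7739 against 7739 on mt-Ta in myotubes. The rate thus follows from the converted share and the number of T per read, and it is not a separate measure of conversion. By the share of reads, mt-Rnr2 was not above mitochondrial mRNAs in myotubes.

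Single clusters differed more than genes. On mt-Rnr2, the converted share ran from 19.0% to 88.0% in ESCs and from 35.2% to 94.9% in myotubes, and on mt-Rnr1 from 50% to 66.2% and from 39.4% to 69.8%. The highest value in both libraries belonged to the same stretch of mt-Rnr2, at chrM:2085-2118 in ESCs, though with only 25 and 39 reads. The stretch from chrM:1648 was low in both, at 22.1% of 145 reads in ESCs and 41.2% of 153 in myotubes. The share was higher in myotubes in 6 of the 7 mt-Rnr1 pairs and in 6 of the 13 mt-Rnr2 pairs.

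In mt-Ta, 12 of the 13 T of the ESC cluster and all 13 of the myotube cluster were recorded as conversion positions. In each, 1 T lies past the gene's end, where an added CCA would read as a conversion. The deposited mode position also lay past the gene's end at chrM:5018, at 5015 in ESCs and 5014 in myotubes. The part of reads with an added CCA in the converted shares of mt-Ta (60.1% and 72.3%) was not tested. Mismatches other than T-to-C were found in 1.20% of mt-Ta reads in ESCs and 0.906% in myotubes. On mt-Rnr1 the same shares were 3.11% and 3.52%. The deposited log10 conversion specificity, the log10 of converted reads over otherwise mismatched reads plus 1, was 1.70 for mt-Ta in ESCs and 1.90 in myotubes.

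**Figure D4:**
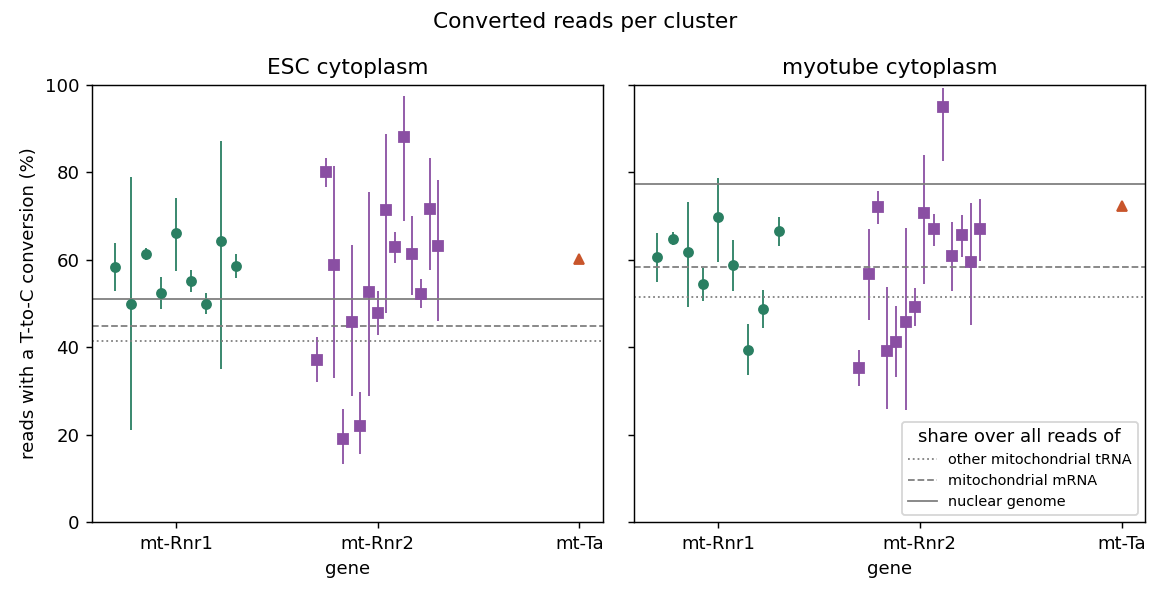
Percentage of reads with a T-to-C conversion (y axis) for each cluster of mt-Rnr1, mt-Rnr2 and mt-Ta in ESCs (left) and myotubes (right), in order along the gene, with exact 95% counting intervals as bars. Grey lines are the shares over all reads of other mitochondrial tRNAs, mitochondrial mRNAs and the nuclear genome; the mt-Rnr2 clusters spread from 19.0% to 88.0% in ESCs, and mt-Ta stands at 60.1% and 72.3%.

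The ends of reads and clusters bear on the RNase T1 digestion, which leaves fragments that end in G. The last base was G in 22 of 24 rRNA clusters in ESCs and in 21 of 23 in myotubes, 91.7% and 91.3%, against 73.9% and 71.3% of all clusters. This was not particular to the rRNAs. Clusters of mitochondrial mRNAs stood at 92.9% and 88.2%, and all clusters on chromosome M at 88.9% and 85.1%. By reads, 57.0% of mt-Rnr1 reads ended in G in ESCs and 40.2% in myotubes, and 67.5% and 69.9% of mt-Rnr2 reads did. The low myotube value of mt-Rnr1 went with its leading cluster, where 20.1% of reads ended in G in myotubes and 39.1% in ESCs; over the gene's clusters the median was 66.7% and 79.4%. At chrM:646-666 of mt-Rnr1, 99.5% of ESC reads ended in G. Of the mt-Ta reads, 66.9% ended in G in ESCs and 62.7% in myotubes. The called ESC cluster of mt-Ta stops at an A, and the myotube cluster stops 1 base further on, at a G.

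The base composition of the rRNA clusters was rich in A and T, at 71.2% in ESCs and 71.3% in myotubes, with 9.41% and 9.06% G. The clusters were long, with a median of 41.5 nt in ESCs and 42 nt in myotubes, where all clusters had 22 and 24 nt and those of mitochondrial mRNAs 28 and 32 nt. Within mt-Rnr1 the length ran from 20 to 112 nt in ESCs and from 24 to 81 nt in myotubes. The mt-Ta clusters, of 40 and 41 nt, held 65.0% and 63.4% A and T and 17.5% and 19.5% G.

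Seed matches were searched as the 7-nt complements of bases 2 to 8 of 71 mature miRNAs, those of the 36 miRNA genes that had a cluster in either table and a RefSeq entry. They came to 66 distinct sites, and only the strand of the gene was searched. Such a site was in 3 of the 25 ESC clusters, 12% (2.55 to 31.2%), and in 3 of the 24 myotube clusters, 12.5% (2.66 to 32.4%). Over all clusters the share was 12.6% in ESCs and 13.4% in myotubes, and in 3′UTR clusters 14.3% and 16%. The member clusters were longer, and per kb of their pooled sequence they held fewer matches: 3.85 in ESCs and 3.71 in myotubes, against 5.97 and 5.62 over all clusters and 6.82 and 7.59 in 3′UTR clusters. This did not hold for each gene. Per kb, mt-Rnr1 clusters held more than all clusters, 7.98 in ESCs and 7.75 in myotubes, and mt-Rnr2 clusters held 1.61 and 1.54. These rates rest on few clusters. In each library 2 of 9 mt-Rnr1 clusters had a site, 22.2% (2.81 to 60.0%), and 1 of these held 2 overlapping sites. On mt-Rnr2 it was 1 of 15 in ESCs and 1 of 14 in myotubes, so no difference in seed density between the genes can be read from them. Clusters of mitochondrial mRNAs held 4.65 and 3.96 per kb. The mt-Ta clusters held none.

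The sites lay at the same places in both libraries. On mt-Rnr1, the clusters at chrM:590-618 in ESCs and chrM:569-616 in myotubes held ACTTTAT, for miR-142a-5p, and CTTTATA, for miR-340-5p, which overlap by all but 1 base. On mt-Rnr2, the clusters at the 5′ end held CCCTACA, for miR-135b-3p. The mt-Rnr1 cluster at chrM:646-666 held CTACCTC, for let-7d-5p and let-7g-5p, at bases 649 to 655 of chromosome M, and the next base was A, as the printed sequences show. In both libraries the deposited mode position of this cluster was that next base, 656, so the 2 mode positions coincided.

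The let-7 match is given in more detail because it lies in the mt-Rnr1 pair that differed most in favour of ESCs. CTACCTC was in 20 ESC clusters (0.752%) and in 9 myotube clusters (1.01%). The mt-Rnr1 cluster held 1516 of their 1734 reads in ESCs and 296 of their 408 in myotubes, and the next largest had 67 reads (the small nucleolar RNA Gm26287, ESCs) and 27 (Gatm, myotubes). Clusters on let-7 miRNAs were looked up for Mirlet7g and Mirlet7d alone, and these went the other way. In myotubes let-7g-5p had a cluster of 531 reads. In ESCs their only cluster, of 7 reads, lay on the let-7d-3p arm, which lacks this seed. Of 50 miRNA genes with a cluster, 36 were matched in RefSeq, and let-7 genes among the rest were not looked up. A match of letters is a description and does not show that let-7 was bound there.

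Few genes of the proteins that make and use these RNAs had a cluster, as was so of nuclear protein-coding genes at large, of which 5.72% had one in ESCs and 1.6% in myotubes. Of 27 genes of mitochondrial RNA synthesis, processing and modification, 2 had a cluster in ESCs and none in myotubes. Both encode subunits of mitochondrial RNase P, which frees the 5′ ends of tRNAs: Trmt10c with 7 reads and Hsd17b10 with 13. Of 78 mitochondrial ribosomal protein genes, whose products assemble on mt-Rnr1 and mt-Rnr2, 3 had a cluster in ESCs, Mrps2 with 16 reads and Mrpl11 and Mrps16 with 8 each. In myotubes 2 had one, Mrps16 with 10 reads and Mrps2 with 5. Of the 13 mRNAs of the mitochondrial genome, in contrast, 6 had clusters in each library.

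Copies of mitochondrial genes in the nuclear genome can share reads with the originals. No cluster of the nuclear genome, of 2560 in ESCs and 768 in myotubes, shared a stretch of 18 bases with a member's cluster. How the authors placed reads that match both genomes is not given in the sources used here.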

How the data were processed

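AGO PAR-CLIP cluster tables of the ESC and myotube cytoplasm were used, 1 library each, assigned by worksheet name. Titles end in "(2)", whose meaning the labels do not give. Per the file headers, the deposited read, distinct-sequence and conversion columns are raw counts per cluster. The deposited share of reads ending in G is a fraction from 0 to 1, the conversion specificity is a log10 value, and the mode position rests on the authors' conversion score. Read shares were printed as percent, and converted shares were recomputed from the deposited counts. The submitters' processing notes name bcl2fastq 2.17.1 and build mm10. Which aligner, caller and photoactivatable nucleoside were used is not given in the sources used here.

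Reads were summed per gene symbol and divided by the table's total. The read count equalled the sum of its unconverted, converted and other reads in 99.5% of ESC and 99.4% of myotube clusters. Gene bounds are those of RefSeq GRCm38.p6 for the genes at the positions of the clusters. Coordinates are 1-based. Python 3.11.15, pandas 2.3.3, numpy 2.4.6, scipy 1.17.1 and matplotlib 3.10.9 were used, and the interval code was tested on simulated data. No test between libraries was made. The 3 members and all other mitochondrial tRNAs with a cluster were named, as were up to 3 genes with most reads per list and the 3 genes nearest each member in ratio. Of the 27 RNA processing genes, 26 symbols were in the gene name table. Members, lists and rules were chosen with earlier results of these data known. Alternatives changed the total, the counting unit, the minimum reads and the clusters used.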

Additional observations from a re-analysis of the deposited data

How the results depend on the processing

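With chromosome M reads as the total, the log2 ratio of the read share was 0.81 for mt-Rnr1 and 0.26 for mt-Rnr2, turning their direction, and -0.070 for mt-Ta. Without miRNA clusters and the leading cluster in the total it was 0.31 for mt-Rnr1, again turned, -0.24 for mt-Rnr2 and -0.56 for mt-Ta (for mt-Ta the leading cluster off chromosome M, chosen after seeing the data). By distinct sequences it was -0.43, -0.85 and -1.18. Overlapping clusters alone gave 0.017 for mt-Rnr1. Without the gene's own leading cluster it was 0.21 for mt-Rnr1 and -0.72 for mt-Rnr2; mt-Ta has 1 cluster. The median converted share over mt-Rnr2 clusters was 58.8% in ESCs and 60.3% in myotubes. The median share ending in G was 66.7% and 79.4% for mt-Rnr1 and 63.2% for mt-Rnr2 in ESCs. Pairs at least 2-fold higher in ESCs went from 2 to 0 by distinct sequences, an alternative chosen after seeing the data. In all, 5 values turned direction, 13 moved and 23 stayed. Beyond these changes of the reads or clusters counted, the cause was not tested. No paired analysis was possible because each group had 1 library.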
